A study of Mus musculus with 24 samples.

Results

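The genes described here are 10 targets of the hypoxia-inducible factors whose products act outside glycolysis: Vegfa, Bnip3, Ndrg1, Ankrd37, Adm, Car9, P4ha1, P4ha2, Kdm3a and Ak4. They were chosen by name, as known targets, with earlier results of these data in view, and all 10 were found among the 16572 gene names of the expression table. They were compared between mouse oocytes grown in follicle-free culture in 5% oxygen and in 20% oxygen. The ovaries were dissociated with enzymes and plated on gelatine, so other ovarian cells started in the same dish. Both groups came from ovaries taken at 7 days of age from mice whose strain the labels give as C57BL/6 Barb, and which the methods describe as a cross with SV129. Both were sequenced at class IV, the largest size class, which the labels give as 60-70 µm for both groups and the methods as a slightly smaller range for 20% oxygen. The group called IV 5% O2 had grown for 9 days with fresh medium every 24 h, and the group called IV 20% O2 for 14 days with fresh medium every 48 h, so oxygen, days of culture, feeding and any difference in oocyte size cannot be told apart. Total RNA depleted of ribosomal RNA was sequenced from 2 libraries per condition. The table holds 1 pooled column per condition, so the values have no replicate spread and no test between conditions could be made. The pooled columns held 132185259 reads for IV 5% O2 and 40875362 for IV 20% O2, a 3.23-fold difference in depth. Levels are given as reads per 1000000 reads (RPM), with intervals that cover counting error only, and differences as IV 5% O2 minus IV 20% O2 on the log2(RPM + 1) scale. This scale understates the change of genes near or below 1 RPM.

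In oxygen, prolyl hydroxylases mark the alpha subunits of the hypoxia-inducible factors for recognition by VHL and destruction. When oxygen is short the alpha subunits persist, pair with ARNT and bind a short core sequence near their target genes. Known targets include the enzymes of glycolysis and also genes for blood vessel growth, mitophagy, pH control, collagen maturation and chromatin. In the ovary, VEGFA made in growing follicles is known to attract the vessels that surround them.

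Of the 10 genes, 4 were at least 2-fold higher in IV 5% O2 and none was at least 2-fold lower. The 4 were P4ha1, P4ha2, Bnip3 and Kdm3a, with differences of 2.07, 1.56, 1.33 and 1.11. Car9, Ndrg1, Ankrd37 and Vegfa were higher by 0.75, 0.53, 0.41 and 0.36. Ak4 and Adm were lower, by -0.27 and -0.43. An average of 1 RPM or more over both columns was met by 14704 genes and by 9 of the 10, Adm being below it. These are called the genes tested, in the sense that their difference was compared with 2-fold, with no p-value. Ndrg1 and P4ha2 met it only through their IV 5% O2 value, so the counts are descriptions. Of all genes tested, 18.7% were at least 2-fold higher in IV 5% O2 and 9.22% at least 2-fold lower, against 44.4% (4 of 9) and 0 of 9 here. The median difference of the 9 was 0.75 and that of all genes tested was 0.26. As deposited, 8 of the 9 were above the median of all genes and Ak4 below it. The number above was 7 with a pseudocount of 5 RPM or after quantile normalization, where Vegfa was also below, and 6 per kb of exon, where Vegfa and Ndrg1 were. Division by exonic length leaves the ratio of each gene as it was. Differences per kb change only because 1 was added after the division, which acts like a larger pseudocount for long genes.

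**Figure D1:**
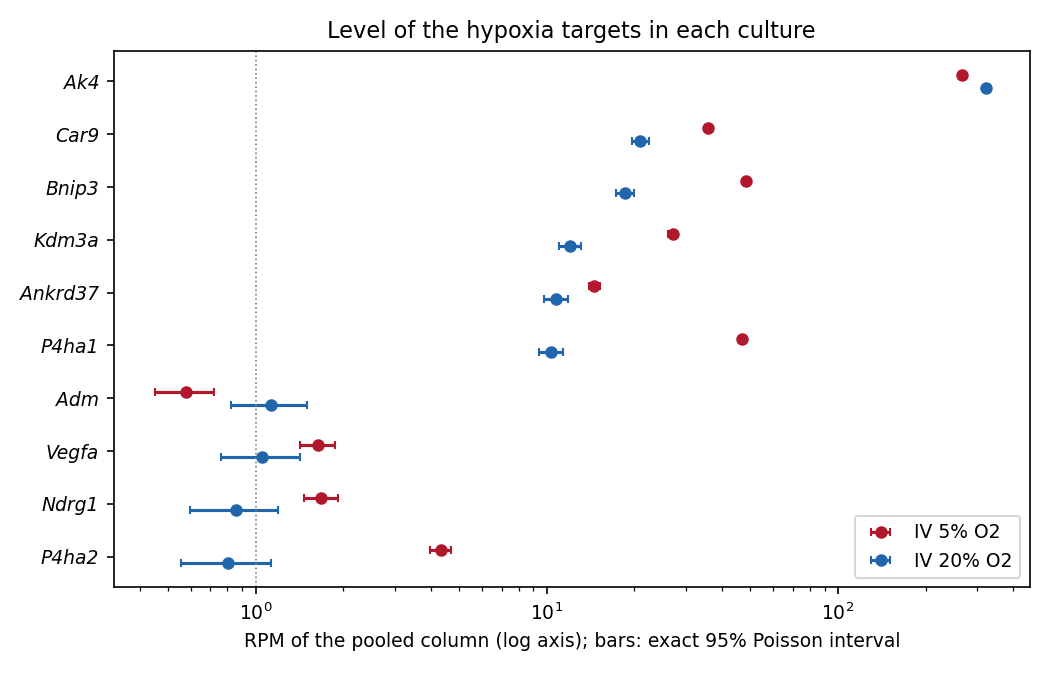
Level of each of the 10 genes in the pooled columns of IV 5% O2 (red) and IV 20% O2 (blue), in RPM on a log axis, with exact 95% Poisson intervals for counting error. The columns lie farthest apart for P4ha1 and P4ha2, and Adm and Ak4 are the 2 genes with the blue point to the right.

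The promoters of these genes were read for the core that the hypoxia-inducible factors bind, so that genes with larger and smaller differences could be set side by side. RefSeq promoters of 300 bases (250 before the start site and 50 after it, GRCm38.p6) were given for 9 of the 10, all but Ndrg1. Both strands were searched for ACGTG and GCGTG, which are the forms of the core. The stretches shown lie upstream of the RefSeq start site and run 5′ to 3′ along the strand of the gene, with capitals for each core or its reverse complement. They are those of the 4 genes at least 2-fold higher, of Car9, and of Ak4, the most abundant of the 10 and lower in IV 5% O2. Adm, which was also lower, is not shown. Bnip3 is from chr7:138909520-138909643 (minus strand), P4ha1 from chr10:59323113-59323295 (plus strand) and P4ha2 from chr11:54100797-54100879 (plus strand). Kdm3a is from chr6:71632928-71632956 (minus strand), Car9 from chr4:43506996-43507024 (plus strand) and Ak4 from chr4:101419195-101419276 (plus strand). The Kdm3a and Car9 stretches hold 29 bases each, because the start of the gene in the expression table lies upstream of the RefSeq start by 73 and 60 bases.
Bnip3: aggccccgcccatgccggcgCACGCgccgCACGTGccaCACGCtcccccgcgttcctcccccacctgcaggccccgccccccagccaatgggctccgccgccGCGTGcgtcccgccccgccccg
P4ha1: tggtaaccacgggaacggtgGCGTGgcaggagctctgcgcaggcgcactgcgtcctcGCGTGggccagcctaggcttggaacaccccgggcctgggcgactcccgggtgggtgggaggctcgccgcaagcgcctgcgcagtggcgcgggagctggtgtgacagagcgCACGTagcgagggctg
P4ha2: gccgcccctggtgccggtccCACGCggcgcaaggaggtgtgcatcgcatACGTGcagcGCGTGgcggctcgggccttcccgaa
Kdm3a: ccgggaggctgtGCGTGtcttgtgagaga
Car9: ctatttccgatgCACGTacagcccgtcca
Ak4: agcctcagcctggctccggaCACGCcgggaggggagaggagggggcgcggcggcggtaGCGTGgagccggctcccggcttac

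The core was found in 8 of the 9 promoters, and in 43.8% of the 32851 promoters of this length. ACGTG was present in 5 of the 9 (Bnip3, Ankrd37, Car9, P4ha1 and P4ha2) and in 19.6% of all promoters. GCGTG was present in 7 of the 9 and in 32.4% of all. The Bnip3 promoter held 5 matches, a number reached or passed by 1.66% of promoters. In Bnip3, 2 of the 5 are the same 6 bases read on both strands, at positions -108 to -103 from the start site. P4ha2 and Ankrd37 held 4 matches each, P4ha1 held 3, Ak4 and Adm 2, and Car9 and Kdm3a 1. Vegfa held none in this window. The RefSeq start of Ankrd37 lies 5857 bases from the gene's start in the expression table, and that of P4ha2 829 bases, so these windows may belong to another start site than the reads do. The number of matches was not tested against the difference. Bnip3, P4ha2 and P4ha1, with 5, 4 and 3 matches, had the largest differences (1.33, 1.56 and 2.07), while Ankrd37, with 4, differed by 0.41. The windows of P4ha2 and Ankrd37 carry the doubt about the start site given above. Kdm3a and Car9, with 1 each, differed by 1.11 and 0.75, and Ak4 and Adm, with 2 each, by -0.27 and -0.43. The observed-to-expected ratio of CpG was above the median of all promoters (0.384) in 7 of the 9, with Ak4 highest at 0.934 and Car9 lowest at 0.207. Binding was not measured, and a match is a match of letters.

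**Figure D2:**
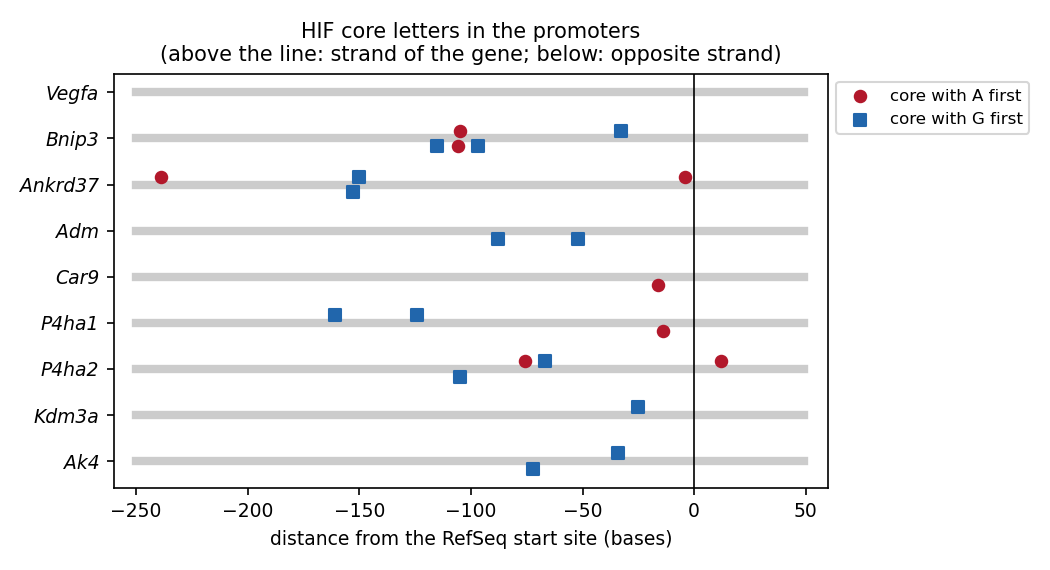
Position of each core match in the promoters of 9 genes, in bases from the RefSeq start site (vertical line at 0), as red circles where the core starts with A and blue squares where it starts with G. Marks above a line are on the strand of the gene and marks below it on the opposite strand. Bnip3 holds 5 matches and Vegfa none.

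As deposited, the largest differences were in the collagen prolyl 4-hydroxylases. That of P4ha2 fell below 1 with a pseudocount of 5 RPM (0.68) and per kb of exon (0.58), and in both settings it was smaller than those of Bnip3 and Kdm3a. Both settings give the pseudocount more weight at its low level, and its ratio, given below, is the same in both. P4ha1 and P4ha2 are alternative catalytic subunits of the enzyme that hydroxylates proline in procollagen, which collagen needs for a stable triple helix. P4ha1 (ENSMUSG00000019916, chr10:59323296-59373304, plus strand, mm10) stood at 46.9 RPM (6199 reads) in IV 5% O2 and 10.4 RPM (424 reads) in IV 20% O2. Its ratio was 4.52 (95% interval 4.10 to 5.00), and its difference of 2.07 was above that of 97.9% of the genes tested. P4ha2 (ENSMUSG00000018906, chr11:54100095-54131665, plus strand) stood at 4.33 RPM (572 reads) and 0.807 RPM (33 reads). The ratio for P4ha2 was 5.36 (3.77 to 7.86), with an interval that overlapped that of P4ha1, and its difference of 1.56 was above that of 93.1% of the genes tested. P4hb, the disulphide isomerase that forms the other subunit of the same enzyme, was at 288 and 351 RPM, a difference of -0.29. Among 13 other enzymes and chaperones of collagen maturation, 9 could be read, 8 were tested, none was at least 2-fold higher and 2 were lower. Over all genes tested these shares were 18.7% and 9.22%. The untested gene was the collagen chaperone Serpinh1, with 215 reads (1.63 RPM) in IV 5% O2 and 2 reads (0.0489 RPM) in IV 20% O2, a ratio of 33.2 (9.09 to 276). With no filter it made the count of higher genes 1. The 2 lower genes were P3h4, with 84 reads (2.06 RPM) in IV 20% O2 and 0 reads in IV 5% O2, which allows up to 0.0227 RPM, and Crtap (1.57 and 4.45 RPM), both parts of the prolyl 3-hydroxylation machinery. The catalytic P3h1 of the same machinery was at 22.8 and 12.2 RPM, a difference of 0.85. P3h4 met the filter only through its IV 20% O2 value.

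Markers of theca and stroma cells were higher in IV 5% O2, as the P4ha genes were, and their part in these values was not tested. Of 18 theca and stroma markers, 10 could be read and all 10 were higher in IV 5% O2, with a summed level of 45.3 against 5.48 RPM. They ranged from 0.431 to 16.4 RPM in IV 5% O2 and from 0 to 2.30 RPM in IV 20% O2. Of all genes tested, 62.6% were higher in IV 5% O2 by any amount. Only 7 of the 10 markers were tested, and Cyp11a1, Hsd3b1, Dcn and Vim met the filter only through their IV 5% O2 value. Cyp11a1, which begins steroid synthesis, was at 16.4 and 0.122 RPM, and Hsd3b1, which acts after it, at 5.96 and 0.489 RPM. The stromal markers Dcn, Vim and Col1a2 had 2.43, 2.72 and 0.431 RPM in IV 5% O2 and no reads in IV 20% O2, where 0 reads allow up to 0.0734 RPM. Of 13 granulosa markers 6 could be read, with a summed level of 41.3 and 29.8 RPM. In IV 5% O2 they were led by Nr5a2 (18.7 and 17.6 RPM) and Kitl (10.2 and 5.58 RPM). The 14 oocyte markers summed to 12730 and 18430 RPM. Of these 3 were at least 2-fold lower in IV 5% O2 and none at least 2-fold higher, against 9.22% and 18.7% of all genes tested. Against a median difference of 0.26 for all genes tested, that of the oocyte markers was -0.32. The highest values in either column were those of Padi6 (2266 and 4072 RPM) and Zp2 (1537 and 3807 RPM), both from IV 20% O2, while Nobox was higher in IV 5% O2 (495.9 and 271 RPM). Of 8 endothelial markers 4 could be read, with a summed level of 116.5 and 284 RPM. Of these Vwf (55.5 and 248 RPM) was lower in IV 5% O2, while Pecam1 (45.9 and 32.7 RPM), Tek (13.8 and 3.40 RPM) and Kdr (1.30 RPM and no reads) were higher. Of 8 macrophage markers 3 could be read, with a summed level of 17.9 and 21.1 RPM. Csf1r (9.28 and 15.0 RPM) was lower in IV 5% O2, and Cd68 (7.18 and 6.14 RPM) and Lyz2 (184 and 0 reads) were higher. In such bulk samples more cells of a type and more RNA per cell cannot be told apart.

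Bnip3, a mitochondrial outer membrane protein that recruits the autophagy machinery and can promote cell death, was at 48.5 RPM (6406 reads) in IV 5% O2 and 18.6 RPM (761 reads) in IV 20% O2. The ratio was 2.60 (2.41 to 2.81), and the difference of 1.33 was above that of 89.6% of the genes tested. The gene (ENSMUSG00000078566) lies at chr7:138890836-138909519 on the minus strand. The level of Bnip3 is uncertain. Windows that occur at least 2 times in the genome made up 42.2% of those of 50 bases along its exons and 18.3% of those of 100 bases, with copies on chromosomes 14 and 3. The annotated long noncoding RNA AC160336.1, at 1 of the 2 copies on chromosome 14, was at 7.17 and 2.40 RPM. The other copy there, with more matching windows, is annotated as Gm32857, for which no expression value is listed. The antisense gene Gm45507 shares 22.3% of the exonic bases of Bnip3 and was at 14.4 and 7.29 RPM, and although the libraries were strand-specific, it is not stated whether reads were counted by strand. Bnip3l, the related receptor that clears mitochondria from maturing red cells, was at 147 and 125 RPM, a difference of 0.23, close to the median of all genes. Of 9 relatives and other mitophagy receptors, 2 were at least 2-fold higher, Fkbp8 (87.4 and 26.3 RPM) and Phb2 (171.9 and 78.1 RPM), and none was lower. That count was 1 after median-ratio scaling or quantile normalization, and 2 of 9 is near the 18.7% of all genes tested.

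Kdm3a, a demethylase of mono- and dimethylated lysine 9 of histone H3 that itself needs oxygen to work, was at 27.0 RPM (3574 reads) and 12.01 RPM (491 reads). The ratio was 2.25 (2.05 to 2.48), and the difference of 1.11 was above that of 84.3% of the genes tested. The gene (ENSMUSG00000053470) lies at chr6:71588972-71632990 on the minus strand. With the table rescaled to the median ratio or by quantiles, its difference fell below 1, to 0.81 and 0.96. None of 6 other demethylases of the KDM3 and KDM4 families differed by 2-fold. Of all genes tested, 18.7% were at least 2-fold higher and 9.22% lower. Among the 6, the paralogs closest to Kdm3a were slightly lower in IV 5% O2, Kdm3b at 39.1 and 42.6 RPM and Jmjd1c at 44.2 and 48.4 RPM.

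Car9, a carbonic anhydrase at the cell surface that exports acid in hypoxic cells, was at 35.8 RPM (4738 reads) and 20.9 RPM (855 reads). The ratio was 1.71 (1.59 to 1.85), and the difference of 0.75 was above that of 72.3% of the genes tested. The gene (ENSMUSG00000028463) lies at chr4:43506966-43513729 on the plus strand. The antisense gene Gm12454 shares 9.29% of its exonic bases and was at 4.85 and 1.96 RPM. Of 15 other carbonic anhydrases 6 could be read and 4 were tested, of which 3 were at least 2-fold higher (against 18.7% of all genes), namely Car10 (12.7 and 3.06 RPM), Car8 (19.1 and 7.05 RPM) and Car11 (2.94 and 0.587 RPM). The count was 1 with a pseudocount of 5 RPM, and Car11 met the filter only through its IV 5% O2 value. Car8, Car10 and Car11 are the members of the family that lack the catalytic activity.

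The secreted factors Vegfa and Adm were both close to 1 RPM. Vegfa, the main growth factor of blood vessels, was at 1.63 RPM (216 reads) and 1.05 RPM (43 reads), a ratio of 1.55 (1.12 to 2.21). Its difference of 0.36 was above that of 54.7% of the genes tested. It (ENSMUSG00000023951) lies at chr17:46016993-46032369 on the minus strand. As deposited its difference was 0.10 above the median of all genes, but it was below that median per kb of exon (0.15 against 0.19), after quantile normalization (0.04 against 0.06) and with a pseudocount of 5 RPM (0.13 against 0.19). Its receptors were mostly sparse. Kdr had 172 reads (1.30 RPM) in IV 5% O2 and no reads in IV 20% O2, and Flt1 had 27 and 58 reads (0.204 and 1.42 RPM). The co-receptor Nrp1 was higher in IV 5% O2, at 12.3 and 2.42 RPM, and Nrp2 was at 3.25 and 2.47 RPM. Kdr and Flt1 also mark endothelial cells, as do Vwf and Pecam1, whose levels are given above.

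Adm, the vasodilator peptide adrenomedullin, was at 0.575 RPM (76 reads) in IV 5% O2 and 1.13 RPM (46 reads) in IV 20% O2. It was thus 1.96-fold (1.33 to 2.86) lower in IV 5% O2, and it (ENSMUSG00000030790) lies at chr7:110627661-110629820 on the plus strand. The related peptide Adm2 was at 51.2 and 34.8 RPM. Of the accessory proteins that turn the calcitonin-like receptor into an adrenomedullin receptor, Ramp3 (17.2 and 5.26 RPM) was at least 2-fold higher in IV 5% O2 and Ramp2 (14.8 and 20.2 RPM) was not. Ramp1, which forms the receptor for a related peptide, had 272 and 8 reads (2.06 and 0.196 RPM).

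Ndrg1 and Ankrd37 were higher in IV 5% O2 by 0.27 and 0.15 more than the median of all genes as deposited. Per kb of exon, Ndrg1 (0.15) was below that median (0.19). Ndrg1, a stress-induced cytoplasmic protein, was at 1.68 RPM (222 reads) and 0.856 RPM (35 reads), a ratio of 1.96 (1.37 to 2.89). Its difference of 0.53 was above that of 62.8% of the genes tested. It (ENSMUSG00000005125) lies at chr15:66929318-66969640 on the minus strand. Ankrd37, a small ankyrin repeat protein, was at 14.5 RPM (1923 reads) and 10.7 RPM (439 reads), a ratio of 1.35 (1.22 to 1.51). Its difference of 0.41 was above that of 56.8% of the genes tested. It (ENSMUSG00000050914) lies at chr8:45996902-46005707 on the minus strand, and 22.7% of its exonic bases are shared with Lrp2bp on the opposite strand (3.56 and 3.82 RPM) and 3.70% with Ufsp2 (18.8 and 24.5 RPM).

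Ak4, a nucleotide kinase of the mitochondrial matrix, was the most abundant of the 10 and was lower in IV 5% O2, at 266 RPM (35181 reads) against 322 RPM (13162 reads). The ratio was 0.827 (0.810 to 0.843), and the difference of -0.27 was above that of 26.2% of the genes tested. It (ENSMUSG00000028527) lies at chr4:101419277-101466995 on the plus strand. The level of Ak4 is also uncertain, since 24.1% of windows of 50 bases and 13.8% of those of 100 bases had another copy, among them the processed pseudogene Ak3l2-ps. Ak4 supplied 59.5% of the summed RPM of the 10 genes in IV 5% O2 and 80.8% in IV 20% O2. With it the sums were 447 and 398 RPM, and without it 181 and 76.5 RPM. Among other adenylate kinases, Ak3, also of the matrix, was at 5.91 and 3.99 RPM, and Ak7 was at 2.19 and 0.538 RPM.

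**Figure D3:**
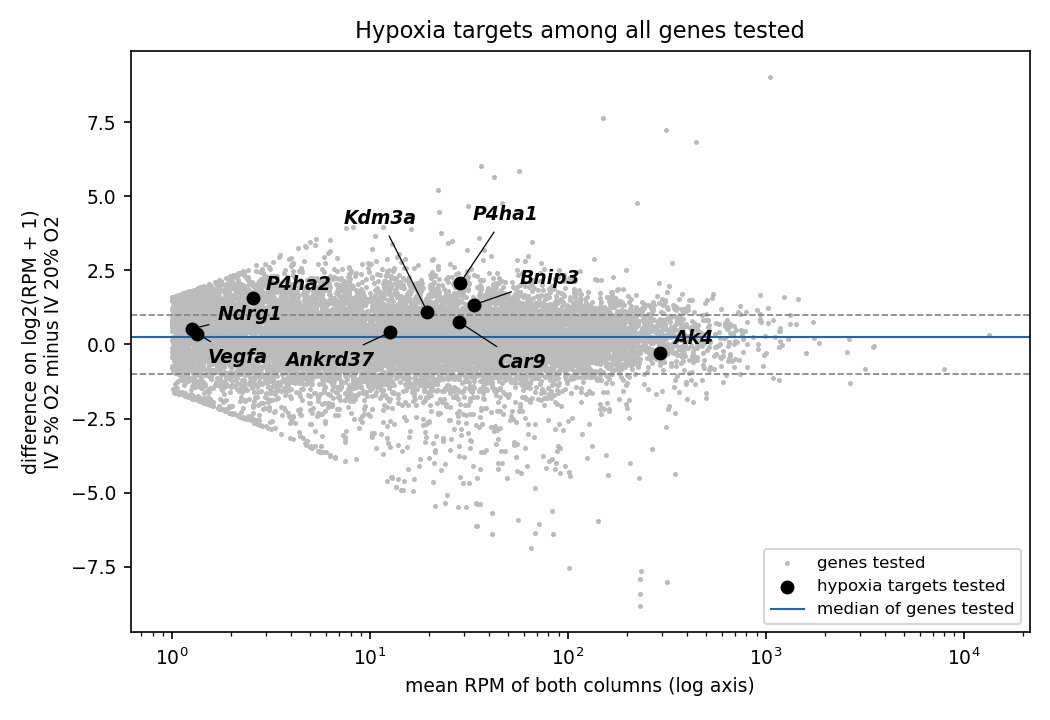
Difference on log2(RPM + 1), IV 5% O2 minus IV 20% O2, against the mean RPM of both columns (log axis) for 14704 genes (grey) and the 9 hypoxia targets tested (black, named). The blue line is the median of all genes, 0.26, and the dashed lines are 2-fold. The 4 genes above the upper dashed line are P4ha1, P4ha2, Bnip3 and Kdm3a.

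Levels between genes were compared after division by exonic length, as RPM per kb. In IV 5% O2 the order was Ak4 at 57.3, Bnip3 at 21.4, Car9 at 15.6, P4ha1 at 11.4, Ankrd37 at 9.45, Kdm3a at 3.29, P4ha2 at 0.694, Vegfa at 0.381, Adm at 0.355 and Ndrg1 at 0.255. The counting intervals overlapped between Vegfa and Adm and between Adm and Ndrg1, and between no other neighbours. In IV 20% O2 the order was Ak4 at 69.3, Car9 at 9.08, Bnip3 at 8.22, Ankrd37 at 6.98, P4ha1 at 2.52, Kdm3a at 1.46, Adm at 0.695, Vegfa at 0.246, Ndrg1 at 0.130 and P4ha2 at 0.129. Car9 overlapped with Bnip3, Bnip3 with Ankrd37, Vegfa with Ndrg1 and Ndrg1 with P4ha2. Ak4 led in both columns, and P4ha2 moved from last place in IV 20% O2 to above Vegfa, Adm and Ndrg1 in IV 5% O2. Levels spanned 225-fold in IV 5% O2 and 536-fold in IV 20% O2.

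Other scalings shifted all genes and with them these values. In the deposited scaling 67.0% of the genes at least 2-fold apart were higher in IV 5% O2, against 46.7% after median-ratio scaling and 49.6% after quantile normalization. The median of all genes moved from 0.26 to -0.03 and 0.06. P4ha1, P4ha2 and Bnip3 stayed at least 2-fold higher under both, and Kdm3a did not. The 9 genes tested kept the sign of their difference under each scaling, with Vegfa down to 0.04 after quantile normalization.

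**Figure D4:**
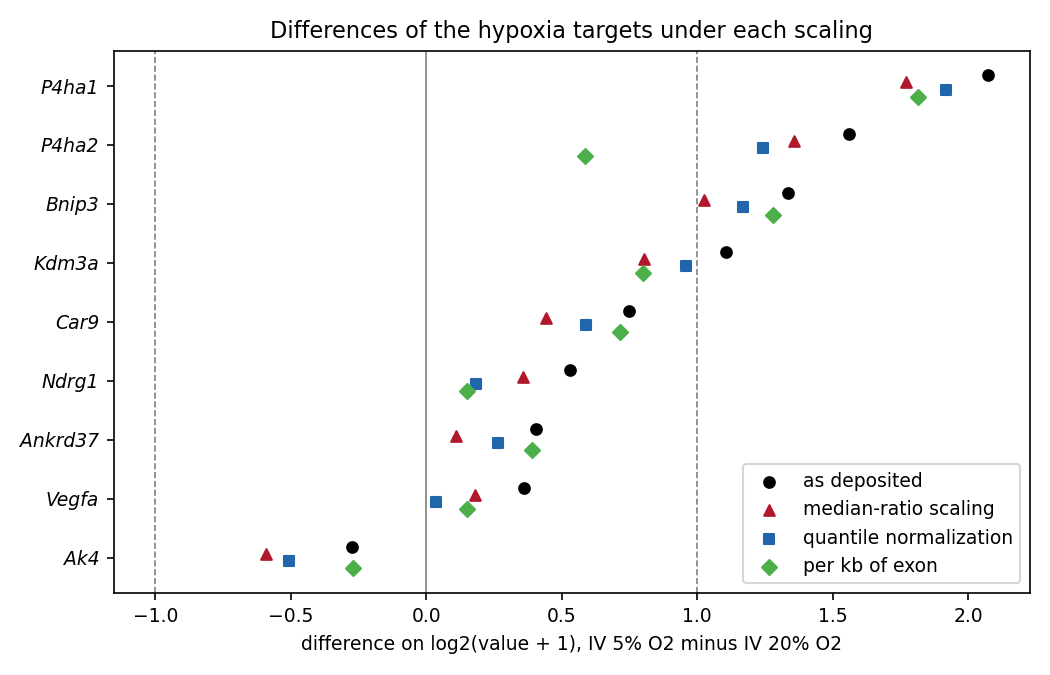
Difference of the 9 genes tested on log2(value + 1), IV 5% O2 minus IV 20% O2, with the table as deposited (black circles), after median-ratio scaling (red triangles), after quantile normalization (blue squares) and divided by kb of exon (green diamonds). Dashed lines mark 2-fold. Ak4 stays left of 0 and P4ha1 right of 1 in each.

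Other targets and the regulators were read beside the 10 genes. Of 42 further targets outside glycolysis, 38 could be read and 35 were tested. Of these 3 were at least 2-fold higher in IV 5% O2 and 4 lower, against 18.7% and 9.22% of all genes tested, with a median of -0.01. The count of higher genes was 0 after median-ratio scaling and 1 after quantile normalization or with a pseudocount of 5 RPM, and it was 5 with a pseudocount of 0.1 RPM. Mxi1, an antagonist of MYC (20.8 and 8.07 RPM), and the chemokine receptor Cxcr4 (5.68 and 1.86 RPM) were among the 3 higher as deposited. Hilpda, a lipid droplet protein (3.24 and 13.4 RPM), and Insig2, a regulator of sterol synthesis (3.57 and 12.01 RPM), were lower. Of 19 glycolytic targets tested, 9 were at least 2-fold higher and 2 lower, with Ldha at 91.0 and 2.37 RPM, Tpi1 at 239 and 31.4 RPM, Aldoc at 9.04 and 1.13 RPM and Gapdh at 3.62 and 43.2 RPM. The median of the glycolytic targets was 0.87. Glycolytic genes such as Gapdh have many processed copies in the genome, so their values are uncertain.

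Of 17 genes of the oxygen-sensing pathway itself, 15 were tested, none was at least 2-fold higher (18.7% of all genes) and 3 were lower (9.22% of all genes), with a median of -0.73. The 3 were Elob (9.05 and 30.7 RPM), a partner of VHL, and the coactivators Crebbp (136 and 349 RPM) and Ep300 (70.9 and 152 RPM). Hif1a was at 344 and 386 RPM, and its partner Arnt at 74.3 and 44.7 RPM. Vhl was at 12.6 and 18.5 RPM, and Egln1, the main oxygen sensor among the prolyl hydroxylases, at 95.04 and 97.9 RPM. These are RNA levels, and the alpha subunits are regulated mainly as proteins, which were not measured.

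**Figure D5:**
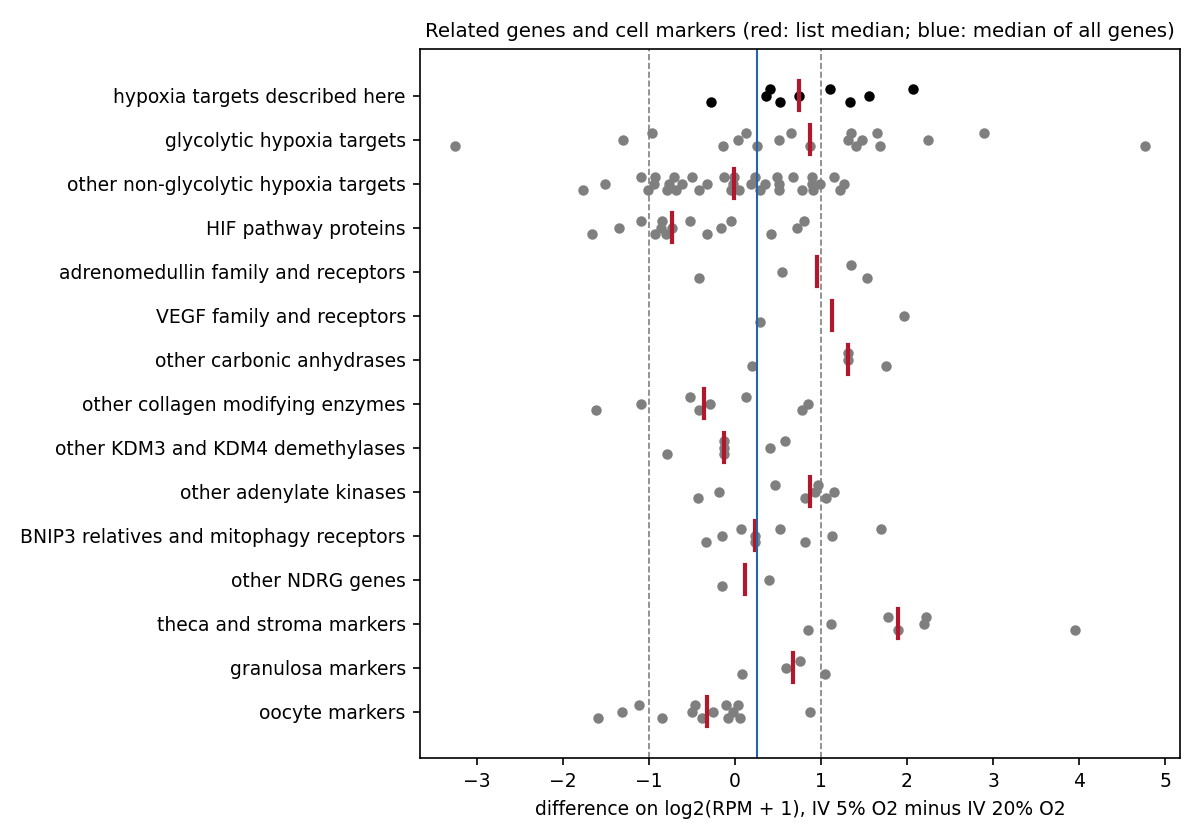
Difference on log2(RPM + 1), IV 5% O2 minus IV 20% O2, of each gene tested in the 9 hypoxia targets (black) and in 14 related or marker lists (grey). Red bars are list medians, the blue line is the median of all genes tested and the dashed lines mark 2-fold. The targets described here have a median of 0.75, the other targets outside glycolysis -0.01 and the oxygen-sensing pathway -0.73.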

How the data were processed

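RNA-seq values were analysed for 2 conditions with 2 libraries each. The RRBS and PBAT libraries were not analysed here. Per the labels and methods, reads of 100 bp pairs were trimmed with Trim Galore, aligned to GRCm38 (mm10) with TopHat2 2.0.9 and quantified in SeqMonk v1.41, and the authors deposited 1 log2 value per gene and condition. How the 2 libraries were combined is not given in the sources used here. The methods name a length-corrected unit, but the deposited log2 values were whole multiples of 1 read, the same for every gene, in 99.98% and 99.99% of rows (within 0.1 read), so they were treated as log2 RPM. A gene without reads is listed at the value of 0.9 read and was set to 0. In the table, 1 further value column matched no sample and was not used.

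Values were returned to RPM and compared as log2(RPM + 1). Genes were tested where both columns averaged 1 RPM or more. Exact 95% Clopper-Pearson intervals of read ratios and exact Poisson intervals of levels cover counting error and compare pooled libraries, not conditions. No p-value was computed. Gene positions and exons came from GENCODE M21, promoters from RefSeq, and repeated windows from a search of the genome in steps of 10 bases. Scripts ran in Python 3.11.15 with scipy 1.17.1, numba 0.67.0, pandas 2.3.3 and numpy 2.4.6, and were tested on simulated data. The members and gene lists were chosen with earlier results of these data known. Named from each list were at most 4 genes with the largest difference of at least 2-fold, direct partners and isoenzymes of the members, and the 2 highest of each marker list. Other markers named (Dcn, Vim, Col1a2, Nobox, Tek, Lyz2), Serpinh1, P3h1, AC160336.1 and the overlapping genes were named after their values were seen. Alternatives were division by exonic length before 1 was added, quantile normalization, median-ratio scaling, a filter at 5 RPM or none, and pseudocounts of 0.1 and 5 RPM. Not every gene that this rule names is reported here.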

Additional observations from a re-analysis of the deposited data

How the results depend on the processing

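No paired analysis was possible because each condition has 1 pooled column, and for the same reason no library could be left out. The count of hypoxia targets at least 2-fold higher in IV 5% O2 was 4 and fell to 2 with a pseudocount of 5 RPM, where P4ha1 and Bnip3 passed, and to 2 after division by exonic length, where the same genes passed. That division leaves the ratios unchanged and alters only the weight of the pseudocount. The median difference of the genes tested was 0.75, and became 0.58 per kb of exon, 0.44 after median-ratio scaling, 0.59 by quantiles, 0.90 with a pseudocount of 0.1 RPM and 0.93 for the 6 genes that averaged 5 RPM or more. The median of all genes tested moved from 0.26 to -0.03 and 0.06 under the 2 rescalings. No difference of a member changed sign in any alternative run. Over all genes, 2753 were at least 2-fold higher and 1356 lower. These became 1202 and 706 with a pseudocount of 5 RPM, 1652 and 928 per kb of exon, 1691 and 917 with the filter at 5 RPM, 1758 and 2003 by median ratios, and 1800 and 1830 by quantiles. Of the counts of higher genes in related and marker lists, 88 stayed within 1.5 times over these settings and 31 moved further, among them theca and stroma, 6 as deposited and 1 with a pseudocount of 5 RPM. At 33 to 46 reads in IV 20% O2, the values of P4ha2, Ndrg1, Vegfa and Adm are limited by depth.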
